A study of Mus musculus with 30 samples.

Results

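The 5 globin genes described here are Hbb-b2, Hbb-bt and Hbb-bs, which encode adult beta chains of haemoglobin, and Hba-a1 and Hba-a2, which encode adult alpha chains. They were chosen by symbol and are 5 of the 24421 genes that each deposited table lists. All 5 were found in all 30 libraries' columns. Haemoglobin is a tetramer of alpha and beta chains with haem, and its genes are switched on strongly as erythroid progenitors mature into red cells. In the mouse the alpha cluster lies on chromosome 11 and the beta cluster on chromosome 7, each with genes for embryonic chains (Hba-x, Hbb-y, Hbb-bh1) beside the adult ones. Bcl11a, the gene the study is about, encodes a zinc finger repressor known for silencing embryonic and foetal globin genes in erythroid cells.

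The study sorted multipotent progenitors from mouse bone marrow by flow cytometry and sequenced their RNA. MPP3 are multipotent progenitors biased to myeloid cells, and MPP4 are biased to lymphoid cells. In each of 5 tables T2 cells are set against T1 cells of the same kind, with 3 libraries each, namely KOiMOS MPP3 of mice aged 3 months, WTiMOS MPP3 of 3 months, WTiMOS MPP3 of 24 months, WTiMOS MPP4 of 3 months and WTiMOS MPP4 of 24 months. The design asks what Bcl11a does within MPP3 and what its overexpression does in wild-type MPP3. The labels give T1 and T2 as part of the genotype and do not say which of them carries which Bcl11a state, what drives it, or whether T1 and T2 cells came from the same animals. KOiMOS MPP3 of 24 months were not analysed here. The values are TPM, read levels scaled by gene length and to the same total in every library, so that levels of different genes can be set side by side. In sorted bulk samples a higher value cannot be told apart between more cells with globin RNA and more globin RNA per cell.

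Reads that fall in the coding part of these genes often cannot be placed on 1 gene. The coding frames of Hba-a1 and Hba-a2 have 429 bases each and differ at 1 base, C381T, counted from the A of the start codon, with the Hba-a1 base first. Those of Hbb-bs and Hbb-bt have 444 bases each and also differ at 1 base, C417T, with the Hbb-bs base first. Of all windows of 50 bases in the coding frame of Hba-a1, 87.1% occur in Hba-a2, and of those in Hbb-bs 92.9% occur in Hbb-bt. The following 41 coding bases of exon 3 (GENCODE vM21, GRCm38) are shown because they hold the only coding base, in capitals, by which the genes of each pair differ.
Hba-a1 at chr11:32284323-32284363, plus strand: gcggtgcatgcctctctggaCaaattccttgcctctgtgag
Hba-a2 at chr11:32297140-32297180, plus strand: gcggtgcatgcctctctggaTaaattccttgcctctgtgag
Hbb-bs at chr7:103826672-103826712, minus strand: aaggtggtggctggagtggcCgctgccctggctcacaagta
Hbb-bt at chr7:103812663-103812703, minus strand: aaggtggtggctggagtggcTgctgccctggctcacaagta
Hba-a1 spans chr11:32283511-32284465 and Hba-a2 chr11:32296489-32297298 on the plus strand, and Hbb-bt spans chr7:103812524-103813996 and Hbb-bs chr7:103826534-103828096 on the minus strand. Hbb-bs and Hbb-bt are the adult beta genes of the single haplotype that C57BL/6 mice carry, while Hbb-b1 and Hbb-b2 are those of the diffuse haplotype. The deposited tables list all 4, and GENCODE vM21 holds neither Hbb-b1 nor Hbb-b2. The sources used here do not say how reads shared by such genes were assigned, so a single gene's value is uncertain, and the alpha genes and the beta genes were also summed in each library.

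The promoters are shown because the beta members rose together in several tables, while RNA of the embryonic Hba-x was read in 1 group. Each window holds the 200 bases before the start of the gene in RefSeq (GRCm38.p6), with matches in capitals to AGATAA or TGATAA (motifs of the GATA type), to CACCC (the box that Klf1 and its relatives bind), to CCAAT (the box named after it), to TATAA (the TATA box) and to TGACCA, on either strand. TGACCA is the motif that BCL11A is known to bind.
Hbb-bt at chr7:103813924-103814123, minus strand: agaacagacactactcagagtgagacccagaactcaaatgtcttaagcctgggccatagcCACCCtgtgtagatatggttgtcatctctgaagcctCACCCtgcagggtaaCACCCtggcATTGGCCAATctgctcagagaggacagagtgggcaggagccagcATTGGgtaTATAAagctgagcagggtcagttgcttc
Hbb-bs at chr7:103827929-103828128, minus strand: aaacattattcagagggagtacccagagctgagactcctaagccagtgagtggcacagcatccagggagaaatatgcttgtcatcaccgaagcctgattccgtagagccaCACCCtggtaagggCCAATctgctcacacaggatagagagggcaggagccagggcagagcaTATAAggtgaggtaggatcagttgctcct
Hba-a1 at chr11:32283472-32283671, plus strand: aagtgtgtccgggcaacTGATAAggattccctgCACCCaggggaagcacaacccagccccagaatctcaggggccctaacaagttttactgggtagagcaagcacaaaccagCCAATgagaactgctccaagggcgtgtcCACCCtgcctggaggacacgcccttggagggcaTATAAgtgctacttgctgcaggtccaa
Hba-x at chr11:32276400-32276599, plus strand: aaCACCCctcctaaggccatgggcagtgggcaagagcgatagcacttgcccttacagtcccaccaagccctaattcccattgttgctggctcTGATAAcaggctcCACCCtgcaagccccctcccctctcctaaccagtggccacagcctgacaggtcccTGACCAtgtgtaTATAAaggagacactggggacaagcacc
All 4 windows hold CACCC and TATAA, and the 3 adult ones hold CCAAT, which in the Hbb-bt window directly follows a match on the opposite strand. No other matches in these windows touch. TGATAA occurs in the alpha genes Hba-a1 and Hba-x. TGACCA occurs in the window of Hba-x, 40 bases before the start, and in that of Hbb-y, 86 bases before the start. It was found in none of the adult windows searched (Hbb-bt, Hbb-bs, Hba-a1, Hba-a2), nor in those of Hbb-bh2, Hbq1a and Hbq1b. The promoters of Hbb-b2, Hbb-b1 and Hbb-bh1 were not searched. Of all 32851 promoters in the table, CACCC was found in 45.5%, CCAAT in 29.3%, TATAA in 18.5%, TGACCA in 9.17%, AGATAA in 7.80% and TGATAA in 6.18% of windows of the same length. The promoters of Hba-a1 and Hba-a2 share an identical run of 297 bases within their 300-base entries, so that of Hba-a2 is not shown. A match describes the letters of a window and not a bound site.

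Depth is unknown, since TPM keep none, and between 10519 and 12008 genes reached 1 TPM per library. Bcl11a itself was listed at 68.2 ± 3.41 TPM in T2 cells and 70.3 ± 2.48 in T1 cells of KOiMOS MPP3 (SD, n = 3 each). In the 4 WTiMOS tables its means were 39.1 to 78.5 TPM in T2 cells and 11.2 to 45.2 in T1 cells, higher in T2 in each. Flt3, the surface marker of MPP4, averaged 116 and 196 TPM in T2 cells and 180 and 113 in T1 cells of MPP4 of 3 and 24 months, but it was also read in MPP3, with 68.9 TPM in T2 cells and 116 in T1 cells of KOiMOS MPP3. The summed TPM of 4 Y-linked genes (Eif2s3y, Ddx3y, Kdm5d, Uty) was 54.0 to 76.8, 106 to 115 and 158 to 169 in T2 cells of WTiMOS MPP3 of 24 months and MPP4 of 3 and 24 months. The T1 cells of the first 2 of these tables were at 0, and those of the third reached at most 0.184, so in these 3 tables the sex of the source animals and the step between T2 and T1 cells cannot be told apart. In the tables of KOiMOS MPP3 and WTiMOS MPP3 of 3 months both cell kinds held Y-linked RNA, at 55.3 to 61.2 and 33.8 to 58.5 in T2 cells, against 110 to 114 and 64.2 to 78.9 in T1 cells.

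T2 cells held more globin RNA than T1 cells in each of the 5 tables. The 5 genes together averaged 1772 ± 141 TPM in T2 cells against 146 ± 4.39 in T1 cells of KOiMOS MPP3 (SD, n = 3 each here and below), and 35.4 ± 1.25 against 16.5 ± 4.81 in WTiMOS MPP3 of 3 months. They averaged 947 ± 160 TPM in T2 cells against 12.4 ± 2.21 in T1 cells of WTiMOS MPP3 of 24 months. In WTiMOS MPP4 the sums were 398 ± 47.1 in T2 cells against 42.3 ± 7.43 in T1 cells at 3 months, and 50.9 ± 3.91 against 12.9 ± 1.32 at 24 months. The ratio of means was thus 76.6 in WTiMOS MPP3 of 24 months, 12.1 in KOiMOS MPP3, 9.40 and 3.95 in WTiMOS MPP4 of 3 and 24 months, and 2.15 in WTiMOS MPP3 of 3 months. In each table the T2 and T1 libraries did not overlap, and the exact permutation test (two-sided) gave p = 0.1, the smallest it can give for 3 libraries against 3.

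Ordered by this sum, T2 cells of KOiMOS MPP3, of WTiMOS MPP3 of 24 months and of WTiMOS MPP4 of 3 months stood highest, each with all its libraries above those of the next group. T1 cells of KOiMOS MPP3 came next, above T2 cells of WTiMOS MPP4 of 24 months, which overlapped with T1 cells of WTiMOS MPP4 of 3 months. T2 cells of WTiMOS MPP3 of 3 months followed. The 3 lowest groups, T1 cells of WTiMOS MPP3 of 3 months, of WTiMOS MPP4 of 24 months and of WTiMOS MPP3 of 24 months, overlapped with their neighbours in this order. The tables were taken as deposited, and levels across tables may hold differences between batches that were not tested.

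**Figure D1:**
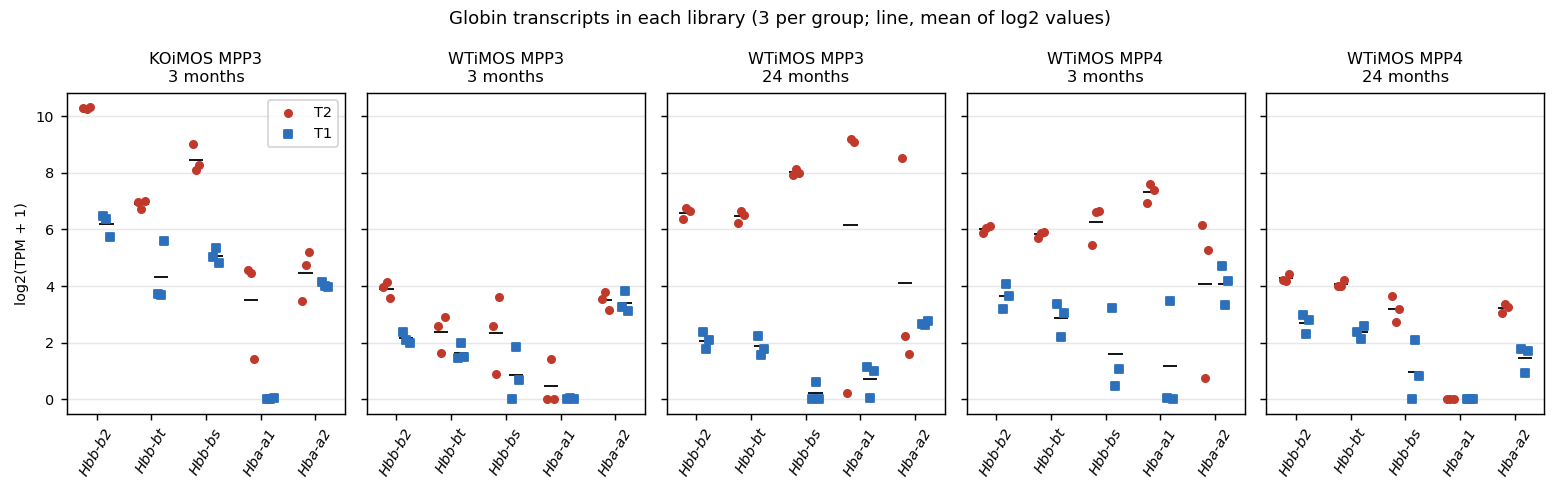
log2(TPM + 1) of each member in each of the 30 libraries, with T2 cells (circles) left of T1 cells (squares) in each of the 5 tables and a line at the mean of the 3 log2 values. Hbb-b2 lies higher in every T2 library than in any T1 library of the same table, with 1213 to 1279 TPM against 52.4 to 89.0 in KOiMOS MPP3, while Hba-a1 and Hba-a2 scatter within groups.

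The beta genes carried most of the globin RNA in KOiMOS MPP3. Hbb-b2 was listed at 1246, 1213 and 1279 TPM in T2 replicates 1 to 3, against 89.0, 81.4 and 52.4 in T1 replicates 1 to 3. Hbb-bs was at 517, 276 and 309 TPM in T2 cells, against 31.8, 39.7 and 27.4 in T1 cells. Every T2 library thus lay above every T1 library for both genes. Differences are given on the scale of log2(TPM + 1), on which low genes change by less than their TPM do. Hbb-b2 rose by 4.09 (SE 0.23) with an adjusted p of 0.000325 (limma, Benjamini-Hochberg adjustment over all genes tested). Hbb-bs rose by 3.40 (SE 0.31) with an adjusted p of 0.00186, a 10.6-fold difference in TPM + 1. Hbb-bt had 125, 105 and 128 TPM in T2 cells, against 11.996, 11.9 and 46.9 in T1 cells, so that 1 T1 library stood well above the other two. Its rise of 2.58 (SE 0.62) had an adjusted p of 0.0385. That call was lost when any library other than T1 replicate 3 was left out, with adjusted p between 0.0918 and 0.113. It was also lost when libraries of the same number were taken as pairs (adjusted p 0.0894). Summed, the 3 beta genes averaged 1733 ± 148 TPM in T2 cells and 131 ± 3.58 in T1 cells, a rise of 3.71 (SE 0.06; adjusted p 1.79e-12).

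In all, 3 of the 5 genes were called higher in KOiMOS MPP3, where 15.9% of the 12100 genes tested were called higher. For 4 of the 5, every T2 library lay above every T1 library, which held for 21.0% of the genes tested. Hba-a1, 1 of those 4, passed the filter on low values, at least 1 TPM in at least 3 of 6 libraries, only through the T2 libraries, so its groups had to differ.

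In WTiMOS MPP3 of 3 months the beta genes were low in both kinds of cell. Hbb-b2 was at 14.7, 16.7 and 11.04 TPM in T2 cells, against 4.17, 3.28 and 2.97 in T1 cells. The groups did not overlap, and the rise of 1.75 (SE 0.24) had an adjusted p of 0.000358. Hbb-bt was at 5.06, 2.11 and 6.56 TPM in T2 cells, against 1.72, 2.91 and 1.82 in T1 cells, and Hbb-bs at 4.96, 0.828 and 11.1 against 0, 2.61 and 0.602. T2 replicate 2 was the low library in both genes and overlapped with T1 cells. Neither gene passed the test, with differences of 0.75 (adjusted p 0.179) and 1.503 (adjusted p 0.157), and both passed when T2 replicate 2 was left out, with adjusted p of 0.0441 and 0.0224. The summed beta TPM did not overlap, at 24.4 ± 4.51 in T2 cells and 6.69 ± 1.84 in T1 cells, and rose by 1.73 (SE 0.23; adjusted p 0.000265). Hbb-b1, an adult beta gene described below, was highest in T2 replicate 2, at 10.99 TPM, against 5.40 and 0.916 in T2 replicates 1 and 3. With it added, the beta sum was 30.2 ± 0.537 TPM in T2 cells and 10.3 ± 1.35 in T1 cells. Of the 4 genes that could be tested 1 was called higher, where 8.39% of 11723 genes were, and for 1 of the 5 genes the groups did not overlap, where 21.4% of genes tested did so upwards. Over all genes 983 were higher and 699 lower, or 551 and 898 after rescaling of the libraries to a common median ratio, and Hbb-b2 was the member called on both scales.

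The widest steps of the beta genes were in WTiMOS MPP3 of 24 months. Hbb-bs was listed at 244, 280.5 and 256 TPM in T2 cells, against 0, 0.538 and 0 in T1 cells. Since it reached 1 TPM in T2 cells only, it passed the filter only through them, and no test is given for it. Its fitted difference was 7.82 and depends on the pseudocount, with 10.5 for Hbb-bs where 0.1 is added in place of 1. Hbb-b2 was at 81.4, 108 and 100.1 TPM in T2 cells, against 4.21, 2.39 and 3.21 in T1 cells, a rise of 4.53 (SE 0.17; adjusted p 5.05e-09). Hbb-bt followed it closely, at 73.7, 98.6 and 90.6 TPM in T2 cells, against 3.74, 1.98 and 2.44 in T1 cells, with a rise of 4.59 (SE 0.18; adjusted p 6.61e-09). In none of the 3 genes did the groups overlap. The summed beta TPM averaged 444 ± 44.2 in T2 cells and 6.17 ± 1.59 in T1 cells, a rise of 5.97 (SE 0.15, adjusted p 4.08e-10). That is 62.9-fold in TPM + 1, and the ratio of the TPM means was 72.0. Besides Hbb-bs, 2 of the 5 genes were called, Hbb-b2 and Hbb-bt, both higher. Over all genes tested 3394 of 11317 were called higher, and 42.0% were called in either direction. Those 2 genes and Hbb-bs did not overlap between groups, where 37.3% of genes tested did so upwards. The median over all genes tested was 0.18 in this table. Of all genes called, 3394 were higher and 1358 lower, and 2113 and 2137 once libraries were rescaled to a common median ratio. Hbb-b2 and Hbb-bt were called on both scales.

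In WTiMOS MPP4 of 3 months most genes moved down and 4 of the 5 globin genes up. Over all genes tested the median of T2 over T1 was -0.74 on the log2 scale, with 983 genes higher and 8193 lower, and after rescaling to a common median ratio 2891 were higher and 2994 lower. Hbb-b2 had 57.9, 64.7 and 67.9 TPM in T2 cells, against 8.04, 15.7 and 11.7 in T1 cells. Hbb-bt had 51.2, 57.4 and 58.8 TPM in T2 cells, against 9.33, 3.61 and 7.17 in T1 cells. All T2 libraries were above all T1 libraries, and the rises were 2.38 (SE 0.18; adjusted p 1.92e-07) and 2.96 (SE 0.26; adjusted p 5.61e-06). Hbb-bs had 42.7, 98.0 and 100.4 TPM in T2 cells, against 8.34, 0.389 and 1.11 in T1 cells, so that replicate 1 was the low library of T2 cells and the high one of T1 cells. It rose by 4.66 (SE 0.90, adjusted p 0.00833), and was no longer called when libraries of the same number were taken as pairs (adjusted p 0.0617). The summed beta TPM was 199.7 ± 41.6 in T2 cells and 21.8 ± 3.42 in T1 cells, a rise of 3.13 (SE 0.15; adjusted p 5.74e-09), or 3.93 after rescaling. Besides Hba-a1, for which no test is given, Hbb-b2, Hbb-bt and Hbb-bs were called higher on both scales, where 8.71% of 11288 genes were called higher as deposited. The groups did not overlap for these genes and for Hba-a1, where 8.98% of genes tested did so upwards.

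In WTiMOS MPP4 of 24 months the beta genes rose by smaller steps, in a table where most genes moved up. The median over all genes tested was 0.43, with 6611 genes higher and 796 lower, and 1667 and 2185 after rescaling. Hbb-b2 had 17.3, 17.1 and 20.5 TPM in T2 cells, against 6.80, 3.91 and 5.88 in T1 cells, and Hbb-bt had 15.1, 14.9 and 17.4 against 4.15, 3.39 and 5.003. The groups did not overlap in either gene, with rises of 1.59 (SE 0.17; adjusted p 6.49e-05) and 1.71 (SE 0.15; adjusted p 1.71e-05). Hbb-bs had 11.6, 5.61 and 8.17 TPM in T2 cells, against 0, 3.21 and 0.778 in T1 cells. It passed the filter on low values mainly through T2 cells, so no test is given for it. Its fitted difference of 2.22 depends on the pseudocount, with 3.63 where 0.1 is added in place of 1. The summed beta TPM averaged 42.6 ± 4.46 in T2 cells and 11.05 ± 0.579 in T1 cells, a rise of 1.85 (SE 0.11; adjusted p 1.54e-06), or 1.43 after rescaling. Besides Hbb-bs, the members Hbb-b2, Hbb-bt and Hba-a2 were called higher, in a table where 58.2% of 11366 genes were. For 4 of 5 the groups did not overlap, where 61.2% of genes tested did so upwards, so the counts of members stand near those of all genes here. The median over the 4 genes that passed the filter was 1.73.

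**Figure D2:**
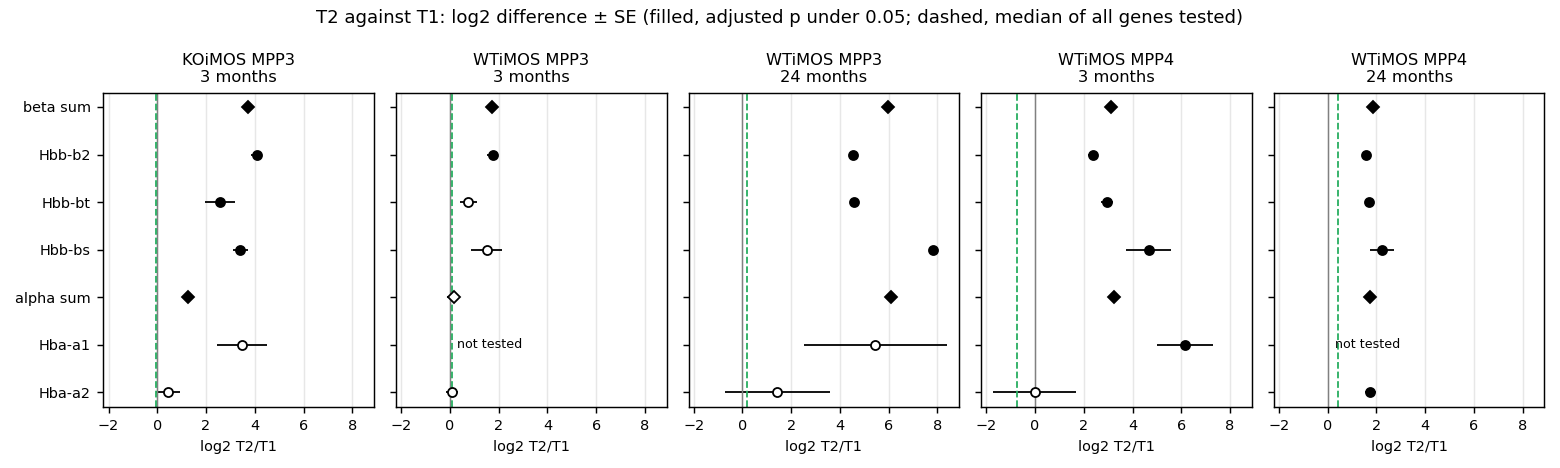
Difference of T2 from T1 cells on the log2(TPM + 1) scale for each member and for the summed alpha and beta TPM in the 5 tables, with bars of 1 SE from limma. Filled symbols passed an adjusted p of 0.05, diamonds are the sums and the dashed line is the median of all genes tested. The beta sum lies above that median in every table, from 1.73 to 5.97, and the bars of Hba-a1 and Hba-a2 in WTiMOS MPP3 of 24 months span 2.93 and 2.16 to each side. Hbb-bs of WTiMOS MPP3 of 24 months and Hba-a1 of KOiMOS MPP3 passed the filter on low values only through T2 cells. Hba-a1 of WTiMOS MPP4 of 3 months and Hbb-bs of WTiMOS MPP4 of 24 months passed it mainly through T2 cells.

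The alpha genes were far more erratic as single genes than as a sum. In WTiMOS MPP3 of 24 months Hba-a1 was listed at 0.163, 583 and 551 TPM in T2 replicates 1 to 3, against 1.19, 0.0169 and 0.986 in T1 cells. Hba-a2 was at 368, 3.70 and 2.02 TPM in the same T2 libraries, against 5.37, 5.17 and 5.86 in T1 cells. T2 replicate 1 was thus the low library for Hba-a1 and the high library for Hba-a2. Neither gene passed the test, with differences of 5.46 (SE 2.93; adjusted p 0.214) and 1.43 (SE 2.16; adjusted p 0.644). Without T2 replicate 1 the differences were 8.43 for Hba-a1 and -0.78 for Hba-a2 (adjusted p 0.0119). Hba-a1 then passed the filter on low values mainly through T2 cells, so no test is given for it there. The sum of both genes was steady, at 368, 587 and 553 TPM in T2 cells, against 6.56, 5.19 and 6.84 in T1 cells. It rose by 6.11 (SE 0.17, adjusted p 8.63e-10). That is 68.9-fold in TPM + 1, and the ratio of the TPM means was 81.1.

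The same held in WTiMOS MPP4 of 3 months. Hba-a1 was at 121, 196 and 167 TPM in T2 cells, against 0.0230, 10.2 and 0.0072 in T1 cells. Its fitted difference was 6.14, and no test is given for it because it passed the filter on low values mainly through T2 cells. Hba-a2 was at 71.2, 0.663 and 37.9 TPM in T2 cells, against 25.1, 9.03 and 17.2 in T1 cells, with full overlap and a difference of -0.01 (SE 1.70; adjusted p 0.997) that turned to 0.70 after rescaling. Summed, they were at 192, 197 and 205 TPM in T2 cells, against 25.1, 19.2 and 17.2 in T1 cells. The groups did not overlap and the rise was 3.23 (SE 0.12; adjusted p 6.32e-11), or 4.03 after rescaling. The spread of Hba-a2 within T2 cells was thus not seen in the sum.

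In KOiMOS MPP3 the alpha genes stayed low in T2 cells as well. Hba-a1 was at 22.8, 21.1 and 1.68 TPM in T2 cells, against 0.00671, 0.00419 and 0.0182 in T1 cells. Its fitted difference was 3.48, and no test is given for it because it passed the filter only through T2 cells. Hba-a2 was at 10.1, 26.1 and 35.7 TPM in T2 cells, against 16.8, 14.9 and 14.6 in T1 cells, and did not pass (0.44, adjusted p 0.561), except without T2 replicate 1 (0.94, adjusted p 0.000591). The sum was at 32.9, 47.2 and 37.4 TPM in T2 cells, against 16.8, 14.9 and 14.6 in T1 cells, without overlap, and rose by 1.28 (SE 0.12; adjusted p 2.08e-05).

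At the other end, the alpha genes of WTiMOS MPP3 of 3 months did not pass the test. Hba-a2 was at 10.6, 12.8 and 7.94 TPM in T2 cells, against 8.57, 13.1 and 7.59 in T1 cells, and Hba-a1 reached 1 TPM only in T2 replicate 2, with 1.64. The sum differed by 0.15 (SE 0.26; adjusted p 0.751) and overlapped. In WTiMOS MPP4 of 24 months Hba-a2 was at 7.21, 9.24 and 8.48 TPM in T2 cells, against 2.41, 0.884 and 2.24 in T1 cells, while Hba-a1 stayed at or below 0.0136 in all 6 libraries. Hba-a2 rose there by 1.75 (SE 0.23; adjusted p 0.000164), without overlap, and had an adjusted p of 0.205 in a fit of all 30 libraries together. Over the 5 tables the T2 libraries lay above all T1 libraries in 5 for Hbb-b2, in 4 each for Hbb-bt and Hbb-bs, in 2 for Hba-a1 and in 1 for Hba-a2, against 5 for the beta sum and 4 for the alpha sum. The same held for 8.98% of all genes tested in WTiMOS MPP4 of 3 months and up to 61.2% in WTiMOS MPP4 of 24 months. In the 2 tables of Hba-a1, and for Hbb-bs in both WTiMOS tables of 24 months, the gene passed the filter wholly or mainly through T2 cells.

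How the RNA divided between the genes of 1 chain also differed between libraries of 1 group. Hba-a1 held 0.0444%, 99.4% and 99.6% of the alpha sum in T2 cells of WTiMOS MPP3 of 24 months, against 18.1%, 0.325% and 14.4% in T1 cells. It held 62.9%, 99.7% and 81.5% in T2 cells of WTiMOS MPP4 of 3 months, against 0.0917%, 53.1% and 0.0419% in T1 cells, and 69.4%, 44.7% and 4.50% in T2 cells of KOiMOS MPP3, against at most 0.125% in T1 cells. The ratio of Hbb-bt to Hbb-b2, by contrast, was tight in 3 groups of T2 cells. It was 0.905, 0.910 and 0.905 in WTiMOS MPP3 of 24 months, 0.884, 0.886 and 0.866 in WTiMOS MPP4 of 3 months and 0.872, 0.869 and 0.850 in WTiMOS MPP4 of 24 months. In T2 cells of KOiMOS MPP3 it ran from 0.0865 to 0.1004. The T1 cells of KOiMOS MPP3 had ratios of 0.135, 0.146 and 0.895, with replicate 3 apart from the other two. The beta sum was divided unlike in the 2 groups of T2 cells with the highest globin level, with Hbb-b2 at 66.0% to 76.1% of it in KOiMOS MPP3 and Hbb-bs at 57.3% to 61.1% in WTiMOS MPP3 of 24 months. The coding windows of Hba-a1 and Hba-a2, and of Hbb-bs and Hbb-bt, are alike over most of their bases, and that of Hbb-b2 was not compared. These shares describe the deposited values and not the use of each gene.

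**Figure D3:**
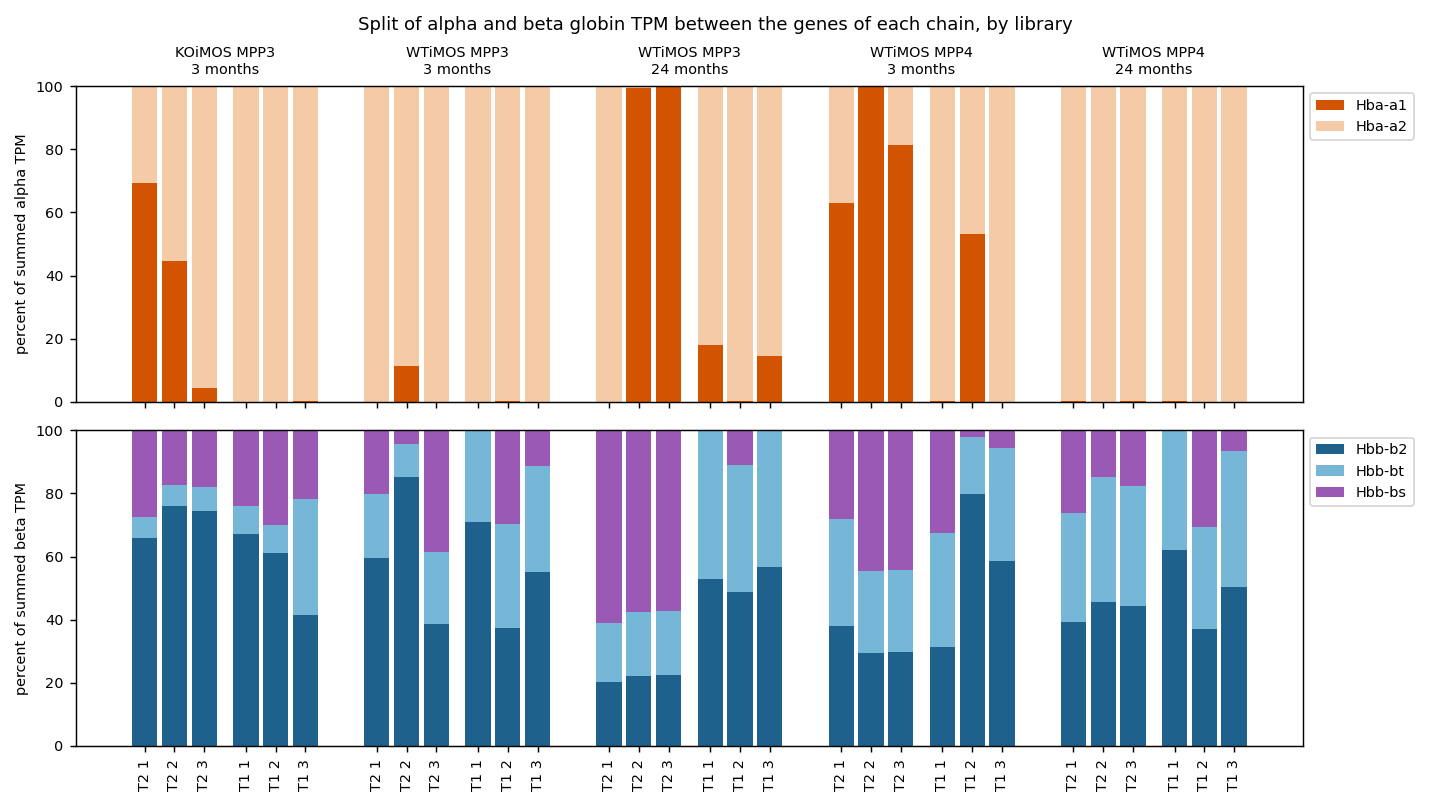
Percent of the summed alpha TPM listed under Hba-a1 and Hba-a2 (top) and of the summed beta TPM listed under Hbb-b2, Hbb-bt and Hbb-bs (bottom), 1 bar per library, with the T2 libraries left of the T1 libraries in each table. The Hba-a1 share spans 0.0444% to 99.6% within the T2 libraries of WTiMOS MPP3 of 24 months, where the Hbb-b2 share of the beta sum spans 20.4% to 22.4%.

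Red cells make alpha and beta chains in near balance, and the ratio of the alpha to the beta sum differed widely between tables. It was 0.0174, 0.0296 and 0.0218 in T2 cells of KOiMOS MPP3, against 0.127, 0.112 and 0.115 in T1 cells. The ratio in WTiMOS MPP3 of 3 months was 0.427, 0.734 and 0.277 in T2 cells, against 1.46, 1.49 and 1.41 in T1 cells. In both tables the groups did not overlap, the ratio being lower in T2 cells, with p = 0.1, the smallest the exact permutation test (two-sided) can give. In WTiMOS MPP3 of 24 months it averaged 1.12 in T2 cells and 1.03 in T1 cells (exact permutation p = 0.6), and in WTiMOS MPP4 of 3 months 1.02 and 0.939 (exact permutation p = 0.8). In WTiMOS MPP4 of 24 months it averaged 0.198 in T2 cells and 0.166 in T1 cells (exact permutation p = 0.7). With Hbb-b1, whose row the tables also list, added to the beta sum, the ratio in these 3 tables was higher in T2 cells without overlap, at 1.07 against 0.685, 0.899 against 0.637 and 0.169 against 0.117 (exact permutation p = 0.1 each). In the other two tables it stayed lower in T2 cells.

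**Figure D4:**
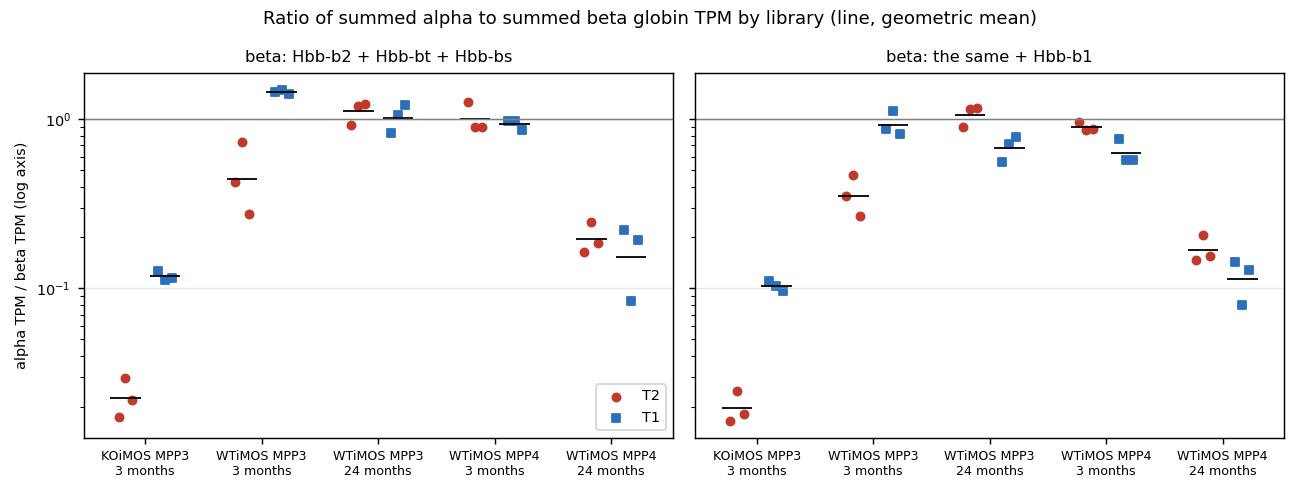
Ratio of summed alpha to summed beta TPM in each library (log axis), T2 cells (circles) left of T1 cells (squares), with a line at the geometric mean of 3 libraries. The beta sum is that of the 3 members on the left and includes Hbb-b1 on the right, and the grey line marks equal sums. The T2 libraries of KOiMOS MPP3 lie lowest, with ratios of 0.0174 to 0.0296 on the left.

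The other globin genes were chosen by a list, of which the tables hold 11. Hbb-b1, an adult beta gene, rose in KOiMOS MPP3 to 119, 305 and 343 TPM in T2 cells, against 18.4, 10.4 and 24.3 in T1 cells (3.71, adjusted p 0.0106). It rose in WTiMOS MPP3 of 24 months to 11.1, 19.9 and 26.7 TPM in T2 cells, against 3.798, 2.39 and 3.06 in T1 cells (2.24, adjusted p 0.000128). In the other 3 tables it did not pass, with differences of 0.21, 0.51 and 0.87 (adjusted p 0.832, 0.597 and 0.215). With it in the sum, the beta rise was called in all 5 tables and was 3.73 in KOiMOS MPP3, 1.47 and 5.52 in WTiMOS MPP3 of 3 and 24 months, and 2.74 and 1.67 in WTiMOS MPP4 of 3 and 24 months. In T2 cells of every table but WTiMOS MPP3 of 24 months, the library highest in Hbb-bs was the lowest in Hbb-b1. In T2 replicates 1 to 3 of WTiMOS MPP4 of 3 months Hbb-b1 was at 47.8, 8.31 and 7.55 TPM. How reads were shared between these genes was not tested.

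Embryonic globin RNA was read almost only in T2 cells of KOiMOS MPP3. Hba-x, the embryonic zeta chain, was at 1.10, 4.70 and 2.69 TPM there and was listed at 0 in the other 27 libraries. It passed the filter only through those libraries, so no test is given, and no fold can be set against values listed at 0. Hbb-bh1, an embryonic beta-like gene, was at 0.187 and 0.364 TPM in T2 replicates 1 and 2 and listed at 0 in the other 28 libraries. Hbb-y, the embryonic epsilon chain, was at 0.986 TPM in T2 replicate 3, and it was also read in 1 T1 library of WTiMOS MPP3 of 24 months (0.552) and in 1 T2 library of WTiMOS MPP4 of 3 months (0.318). Hbb-bh2 was listed at 0 in all 30 libraries. Of the globins outside the clusters, neuroglobin (Ngb) reached 3.38 TPM, cytoglobin (Cygb) 0.870 and myoglobin (Mb) 0.602.

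Whether the step between T2 and T1 cells differed was tested for 5 pairs of tables, on the 12 libraries of each pair. Between KOiMOS and WTiMOS MPP3 of 3 months the step was larger in KOiMOS by 2.33 for Hbb-b2 (adjusted p 0.00125), by 1.98 for the beta sum (adjusted p 2.88e-06) and by 1.12 for the alpha sum (adjusted p 0.0164). The alpha sum was no longer called without T1 replicate 2 or without T2 replicate 3 of WTiMOS MPP3 (adjusted p 0.0843 and 0.0575). Of the 5 members 1 was called larger, where 7.29% of 12609 genes were called larger.

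Between the tables of 3 and 24 months the step moved in opposite directions in MPP3 and MPP4. In WTiMOS MPP3 it was larger at 24 than at 3 months by 2.77 for Hbb-b2 (adjusted p 1.33e-05) and 3.84 for Hbb-bt (adjusted p 1.11e-05). For Hbb-bs the difference of 6.32 is given as a value with no test, since its step at 24 months is against T1 values at or near 0. The alpha sum differed by 5.95 (adjusted p 9.23e-09) and the beta sum by 4.24 (adjusted p 5.24e-08). Besides Hbb-bs, 2 of the 5 members were called larger, where 9.69% of 12384 genes were. In WTiMOS MPP4 the step was smaller at 24 than at 3 months, by -0.79 for Hbb-b2 (adjusted p 0.0158) and -1.25 for Hbb-bt (adjusted p 0.00152). For Hba-a1, which entered the test mainly through T2 cells of 3 months and was too low for the test at 24 months, the difference of -6.13 is given with no test. Hbb-bs (-2.43, adjusted p 0.0652) and Hba-a2 (1.76, adjusted p 0.36) did not pass. The sums differed by -1.47 for alpha (adjusted p 0.000121) and -1.28 for beta (adjusted p 2.74e-05). Besides Hba-a1, 2 of the 5 members were called smaller, where 7.40% of 11789 genes were. All genes tested had a median difference of 1.16 there, 9005 being larger and 872 smaller, or 2988 and 2705 after rescaling.

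Between cell kinds, the step at 3 months was larger in MPP4 than in MPP3 of WTiMOS by 2.21 for Hbb-bt (adjusted p 0.00036). For Hba-a1 the difference of 5.68 is given with no test, for the same reason as above. The alpha sum differed by 3.07 (adjusted p 6.82e-08) and the beta sum by 1.395 (adjusted p 0.000305). Besides Hba-a1, Hbb-bt was the member called larger as deposited, where 7.43% of 12358 genes were. After rescaling, Hbb-b2 (1.66, adjusted p 0.000336) and Hbb-bs (4.17, adjusted p 0.0310) were called larger as well. All genes tested had a median of -0.81, with 918 genes larger and 7130 smaller, or 2504 and 1958 after rescaling. At 24 months the step was smaller in MPP4 than in MPP3 by -2.94 for Hbb-b2 (adjusted p 4.25e-06) and -2.89 for Hbb-bt (adjusted p 2.61e-06), with -5.59 for Hbb-bs as a value with no test. The alpha sum differed by -4.35 (adjusted p 8.07e-07) and the beta sum by -4.12 (adjusted p 6.07e-09). Besides Hbb-bs, 2 of the 5 members were called smaller, where 4.40% of 11897 genes were, and the split over all genes was 1911 larger and 523 smaller, or 861 and 1118 after rescaling. The tables of these pairs are separate sets of libraries, and a batch of a table cannot be told apart from its age, line or cell kind. T2 and T1 cells of WTiMOS MPP3 of 24 months and of both MPP4 tables also differed in holding Y-linked RNA, unlike those of WTiMOS MPP3 of 3 months. In the WTiMOS pairs that include MPP3 of 3 months, the sex of the source animals cannot be told apart from age or cell kind either.

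Some defining genes of maturing red cells were low in all libraries and others of the same list were not. Slc4a1, the anion exchanger of the red cell membrane, reached at most 0.204 TPM and was listed at 0 in 25 of 30 libraries. Alas2, the erythroid enzyme of the first step of haem synthesis, stayed between 0.231 and 1.92 TPM, and Epb4.2 (a protein of the membrane skeleton) stayed at or below 1.38. Bpgm was at 7.28 TPM or more and Hemgn at 5.64 or more in every library, and Rhd reached 13.5 and Aqp1 28.3. The summed TPM of Slc4a1, Alas2, Epb4.2 and Rhag was 7.02 to 9.79 in T2 cells and 1.74 to 2.91 in T1 cells of KOiMOS MPP3. It was 4.13 to 9.10 in T2 cells against 1.17 to 2.77 in T1 cells of WTiMOS MPP3 of 3 months, and 1.73 to 3.03 against 1.11 to 1.87 in WTiMOS MPP3 of 24 months. In WTiMOS MPP4 it was 0.315 to 1.01 in T2 cells against 0.420 to 1.27 in T1 cells at 3 months, and 0.615 to 0.917 against 0.571 to 0.775 at 24 months, with overlap at both ages. Bpgm, of the same list, is not part of these sums. It averaged 8.23 ± 0.855 TPM in T2 cells and 31.2 ± 2.56 in T1 cells of WTiMOS MPP4 of 3 months, and 32.6 ± 2.37 against 21.8 ± 0.593 at 24 months. The highest globin sums of WTiMOS were those of T2 cells of MPP3 of 24 months and MPP4 of 3 months. They thus did not stand with the highest sums of Slc4a1, Alas2, Epb4.2 and Rhag. The part of any red cells in the globin values was not tested.

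**Figure D5:**
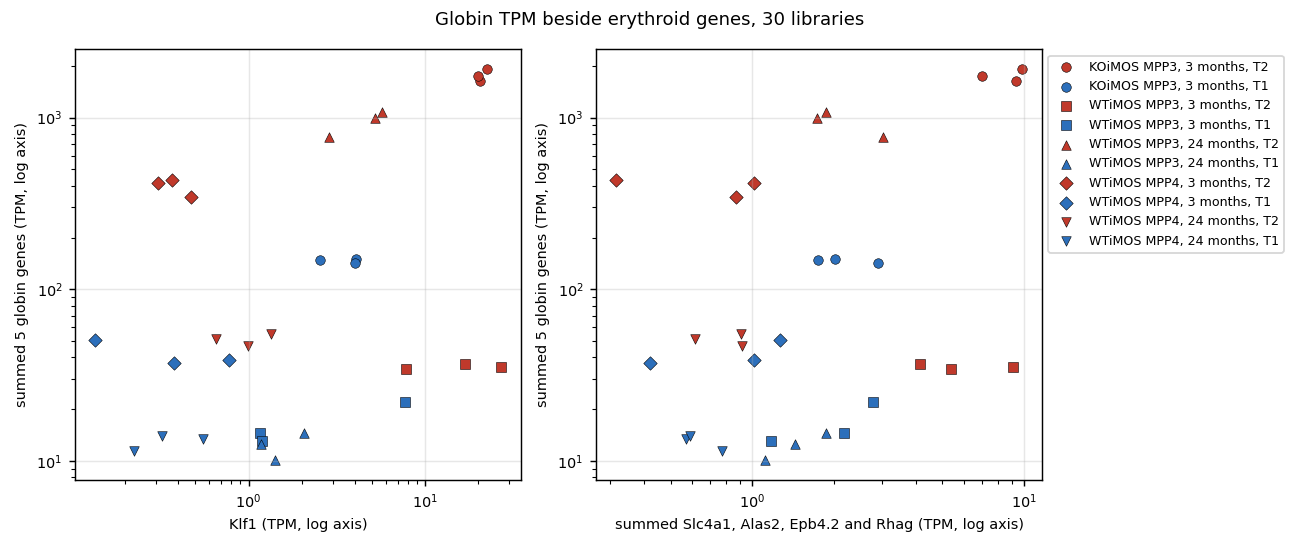
Summed TPM of the 5 globin genes in each of the 30 libraries against the TPM of Klf1 (left) and against the summed TPM of Slc4a1, Alas2, Epb4.2 and Rhag (right), all axes log. The T2 libraries of WTiMOS MPP4 of 3 months hold 344 to 432 TPM of globin RNA at 0.306 to 0.473 TPM of Klf1.

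Klf1, the erythroid transcription factor that drives adult beta globin, was at 22.3, 20.5 and 20.02 TPM in T2 cells of KOiMOS MPP3, against 4.05, 2.56 and 4.04 in T1 cells. It was at 26.9, 7.80 and 16.9 in T2 cells of WTiMOS MPP3 of 3 months, against 1.16, 7.72 and 1.20 in T1 cells, although the globin genes were low there. In T2 cells of WTiMOS MPP3 of 24 months it was at 2.85, 5.71 and 5.18 TPM, against 2.06, 1.41 and 1.18 in T1 cells, and in T2 cells of WTiMOS MPP4 of 3 months at 0.473, 0.306 and 0.367. In these last libraries Gata1, an erythroid master regulator, was at 0.0992 to 0.210 TPM and Epor, the erythropoietin receptor, was listed at 0 in all 3. Klf1 and globin levels thus did not stand in the same order over groups.

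The 4 lists chosen with earlier results of these data known describe the genes around globin. Counts of these and the other lists, here and below, may include genes that passed the filter on low values only through 1 kind of cell. The groups of such genes had to differ. In KOiMOS MPP3 they included Add2, at 4.48 ± 0.790 TPM in T2 cells and 0.389 ± 0.0920 in T1 cells, and Cldn13, at 10.4 ± 1.27 against 0.256 ± 0.288. In KOiMOS MPP3, 11 of 16 tested genes of the globin chaperone and red cell membrane list rose and 1 fell, with a median of 0.89 beside -0.04 over all genes. Of all 12100 genes tested there, 1925 (15.9%) were called higher and 2474 lower. Rhd, which encodes the Rh antigen, averaged 9.51 ± 0.958 TPM in T2 cells and 0.823 ± 0.376 in T1 cells, and Ermap, an erythroblast membrane protein, 8.26 ± 0.931 against 1.31 ± 0.419. Of 26 globin regulators 8 rose and 5 fell, among them Klf1 (2.29, adjusted p 1.01e-07) and Gata1, at 29.8 ± 2.86 TPM in T2 cells and 16.7 ± 1.10 in T1 cells. Of 15 early erythroid and megakaryocyte genes 11 rose and 2 fell, and Ctse, the protease cathepsin E, had 445 ± 23.6 TPM in T2 cells against 26.6 ± 2.93 in T1 cells. Of 21 haem synthesis and iron genes 10 rose and 3 fell, with Hmox1, which breaks haem down, at 85.6 ± 4.46 TPM against 51.0 ± 3.19. Mast cell and basophil genes moved in the same table, with 11 of 13 higher and a summed level of 4776 to 5159 TPM in T2 cells against 469 to 588 in T1 cells. Their part in the result was not tested.

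In WTiMOS MPP3 of 3 months, 11 of 15 early erythroid and megakaryocyte genes rose, with a median of 1.35 beside 0.10 over all genes, and 7 rose after rescaling. Epor averaged 8.30 ± 1.94 TPM in T2 cells and 0.676 ± 0.373 in T1 cells, and Rhag, the Rh-associated glycoprotein, 4.31 ± 2.90 against 0.800 ± 1.25. Of 26 regulators 8 rose, of 12 red cell membrane genes 3 rose (1 of 11 after rescaling), and of 22 haem genes 4 rose and 2 fell. Over all genes 983 (8.39%) were called higher and 699 lower there, or 551 and 898 after rescaling. The counts in WTiMOS MPP3 of 24 months were 12 higher and 1 lower of 13 early erythroid genes, 17 higher of 27 regulators, 6 higher of 10 membrane genes and 12 higher and 2 lower of 21 haem genes, beside the 3394 of 11317 genes called higher in all. After rescaling the regulators had 12 higher and 1 lower, the membrane genes 4 higher and the haem genes 9 higher and 3 lower, while the counts of early erythroid genes were as before. Gata2, a regulator of early progenitors, averaged 39.8 ± 3.28 TPM in T2 cells and 12.04 ± 2.46 in T1 cells, and Hmox1 8.32 ± 0.953 against 0.338 ± 0.453. In that table mast cell and basophil genes summed to 881 to 1003 TPM in T2 cells against 2402 to 2641 in T1 cells. B lineage and plasma cell genes summed to 2578 to 3410 TPM against 529 to 644, of which Jchain, the joining chain of IgA and IgM, averaged 2577 ± 441 against 13.2 ± 1.29. What part such cells have in the globin values was not tested.

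In WTiMOS MPP4 the counts of haem genes and regulators followed the median of all genes and changed with the scaling. At 3 months 19 of 21 haem genes fell as deposited, and 4 rose and 6 fell of 20 after rescaling. Over all genes 983 were called higher and 8193 lower there, or 2891 and 2994 after rescaling. Of 23 regulators 1 rose and 19 fell, or 5 and 8 after rescaling, of 7 membrane genes 5 fell, or 1 rose and 2 fell after rescaling, and of 8 early erythroid genes 3 rose and 3 fell, or 3 and 1. Nfe2, a subunit of the factor that binds globin enhancers, averaged 59.5 ± 2.79 TPM in T2 cells and 212.5 ± 32.0 in T1 cells, and Bpgm, which makes the 2,3-bisphosphoglycerate that lowers the oxygen affinity of haemoglobin, 8.23 ± 0.855 against 31.2 ± 2.56. Ctse rose there, with 29.5 ± 2.71 TPM in T2 cells and 13.04 ± 1.16 in T1 cells (1.12, adjusted p 1.66e-06). At 24 months 15 of 21 haem genes and 22 of 24 regulators rose, and 6 and 11 after rescaling, in the table where 58.2% of genes rose. Of 7 membrane genes 5 rose, or 2 after rescaling, and of 9 early erythroid genes 7 rose, or 7 with 1 lower after rescaling. Ctse had 91.3 ± 14.0 TPM in T2 cells and 12.3 ± 0.433 in T1 cells, and Gypc (glycophorin C) 45.4 ± 3.67 against 23.5 ± 2.13. Of the lists of other cells, neutrophil genes in the order of the 5 tables above were called higher in 6, 1, 3, 1 and 2 of 8, 12, 12, 11 and 12 tested, and lower in 4, 8, 10 and 6 in the WTiMOS tables. Platelet genes were higher in 3, 2, 3, 1 and 4 of 7, 7, 5, 4 and 5 tested, and lower in 1, 1, 2 and 1 in all but WTiMOS MPP3 of 3 months. B lineage and plasma cell genes were lower in 7, 9, 4, 3 and 1 of 10, 10, 10, 8 and 8, and higher in 1, 3, 4 and 3 in all but WTiMOS MPP3 of 3 months. After rescaling of WTiMOS MPP4, neutrophil genes had 3 higher and 4 lower at 3 months, and B lineage genes 2 higher and 3 lower at 24 months. Their part in the globin values was not tested.

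Genes most like the globin sum were ranked by Pearson r over the 30 libraries between log2(TPM + 1) less the mean of its own table and the same of the 5-gene sum, among 12141 genes. The members and predicted genes (Gm, Rik and LOC symbols) were left out of the ranking. The points share libraries, tables and the step between T2 and T1 cells, so r is a description. The 10 highest were Slpi (0.930), a protease inhibitor of secretions, Pglyrp1 (0.922), a peptidoglycan receptor of neutrophil granules, Slc6a13 (0.911), a GABA transporter, Prdx4 (0.897), a peroxiredoxin of the endoplasmic reticulum, Gchfr (0.887), a regulator of GTP cyclohydrolase, Ngfrap1 (0.869), Rgs10 (0.867), a regulator of G protein signalling, Tnfsf13 (0.863), the cytokine APRIL, Afp (0.862), the foetal plasma protein alpha-fetoprotein, and Smagp (0.855), an adhesion glycoprotein. Of the genes compared other than the members, 3 had an r over 0.9. The members themselves had 0.964 for Hbb-b2, 0.965 for Hbb-bt, 0.956 for Hbb-bs, 0.743 for Hba-a1 and 0.247 for Hba-a2, which are parts of the sum. Other genes were read by name and not by rank. Bcl11a had 0.794, Mcpt4 0.752, Hbb-b1 0.689, Tpsb2 0.679, Klf1 0.602, Car1 0.568 and Jchain 0.561. Gata1 had 0.535, Car2 0.520, Epor 0.372 and Cpa3 -0.431. In KOiMOS MPP3 the levels of Bcl11a in T2 and T1 cells were close, as given above.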

How the data were processed

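RNA of sorted bone marrow progenitors was sequenced in 30 libraries, 3 for each of 10 groups. The authors deposited TPM in 5 tables of 24421 genes. Per the submitters' processing notes HISAT2, StringTie, featureCounts, DESeq2 and the build mm10 were used, with no roles given, and per the labels' protocols a low-input cDNA kit was used. Each library has the same TPM total, so depth and counting error are unknown, and how reads shared by near-identical globin genes were assigned is not stated in these sources.

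Within each table, log2(TPM + 1) was tested for genes that reached 1 TPM in 3 or more of the 6 libraries with limma 3.58.1 (R 4.3.3, trend and robust moderation), with Benjamini-Hochberg adjustment over all genes and a threshold of 0.05. Differences between steps used the 12 libraries of both tables with a weight per table. The alpha and beta sums replaced their genes in a repeat of each fit, a choice made after seeing the data. Per-library sums and ratios were tested by exact permutation in Python 3.11.15 with scipy 1.17.1. The fits were tested on simulated data with 200 changed genes. Sequences came from GENCODE vM21 and RefSeq.

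Alternatives were a pseudocount of 0.1, no filter, rescaling to a common median ratio, globins left out of the total, a fit of all 30 libraries, a replicate block, the spread of each table alone and each library left out. Named genes were the members, the other globin genes, up to 4 genes of smallest p from each list and the 10 genes most like the globin sum. Some red cell genes of the lists are not reported here. Members and lists were chosen with earlier results of these data known. Nothing in the labels says whether replicates are separate animals, so p-values measure only how these libraries spread, and that spread may be technical.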

Additional observations from a re-analysis of the deposited data

Results flagged for a closer look

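The step between T2 and T1 cells differed between tables by a test of the difference itself (limma, adjusted over all genes) for 22 results, and that test is what brought each of them here. In KOiMOS against WTiMOS MPP3 of 3 months, the differences of the log2 steps were 2.33 for Hbb-b2, 1.12 for the alpha sum and 1.98 for the beta sum. For WTiMOS MPP3 of 24 against 3 months they were 2.77 for Hbb-b2, 3.84 for Hbb-bt, 6.32 for Hbb-bs, 5.95 for the alpha sum and 4.24 for the beta sum.

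In WTiMOS MPP4 of 24 against 3 months the differences were -0.79 for Hbb-b2, -1.25 for Hbb-bt, -6.13 for Hba-a1, -1.47 for the alpha sum and -1.28 for the beta sum. In WTiMOS MPP4 against MPP3 of 3 months they were 2.21 for Hbb-bt, 5.68 for Hba-a1, 3.07 for the alpha sum and 1.395 for the beta sum. In WTiMOS MPP4 against MPP3 of 24 months they were -2.94 for Hbb-b2, -2.89 for Hbb-bt, -5.59 for Hbb-bs, -4.35 for the alpha sum and -4.12 for the beta sum. The values of Hbb-bs that involve MPP3 of 24 months and those of Hba-a1 rest on steps against T1 values at or near 0, in genes that entered the test wholly or mainly through T2 cells, so no weight is put on them. Pairs of tables that share a table share its libraries, so these results are not independent of each other. In the fit of all 30 libraries Hbb-bt of MPP4 by age had an adjusted p of 0.0955 (limma).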

How the results depend on the processing

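The beta sum kept its direction and its call under every alternative run in each table and in each difference of steps. Of 736 values of single members under alternatives 682 kept both, and of 465 values of sums 462 did. Without the filter 1056 genes were called in WTiMOS MPP3 of 3 months, against 1682. Rescaling to a common median ratio gave 5885 genes in MPP4 of 3 months, against 9176, and 3852 in MPP4 of 24 months, against 7407. It gave 5693 for MPP4 by age, against 9877, and 4462 for MPP4 against MPP3 of 3 months, against 8048, with 4 members larger there, against 2. The log2 ratio of the summed globin TPM became 4.07 in MPP4 of 3 months and 1.54 in MPP4 of 24 months. Hba-a2 turned to 0.70 in MPP4 of 3 months and to 0.73 in MPP4 against MPP3 of 3 months under rescaling. Leaving out each library gave 933 to 2197 genes and 1 to 3 members higher in WTiMOS MPP3 of 3 months, and 0 to 1 members lower in WTiMOS MPP3 of 24 months. It gave 1608 to 2860 genes and 1 to 2 members larger for KOiMOS against WTiMOS, 1201 to 2119 genes for MPP3 by age, and 1458 to 2822 genes with 0 to 1 members larger for MPP4 against MPP3 of 24 months. The alpha sum then ranged from -0.047 to 0.37 in WTiMOS MPP3 of 3 months and from 0.91 to 1.32 for KOiMOS against WTiMOS. Hba-a2 ranged from -0.046 to 0.31 and from -0.78 to 2.69 in WTiMOS MPP3 of 3 and 24 months, and from -1.06 to 1.66 in MPP4 of 3 months. Its differences of steps ranged from -0.021 to 0.84 for KOiMOS against WTiMOS, -0.88 to 2.59 for MPP3 by age, and -1.16 to 1.56 and -0.94 to 2.53 for MPP4 against MPP3 of 3 and 24 months. Samples of the same number did not deviate together (r from -0.197 to 0.127). With 3 libraries per group such r cannot show whether the numbers pair them. With the replicate block 2 members were called in KOiMOS MPP3, against 3, and 3 in MPP4 of 3 months, against 4. The members not called then were Hbb-bt (adjusted p 0.0894) and Hbb-bs (adjusted p 0.0617). The counts for MPP4 of 3 months include Hba-a1, for which no test is given above. Genes called were then 4133, against 4399, and 9235, against 9176, and every library matched its own number best only in WTiMOS MPP3 of 3 months. Where a value moved, the cause was not tested. TPM hold no depth, so the counting error of low values such as Hba-a1 in T1 cells is unknown.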
